A study of Mus musculus with 3 samples.

Results

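The cells described here are the pericytes and the fibroblasts that came along with islets of Langerhans of the mouse pancreas, chosen by a few marker transcripts and set against each other within the same 3 animals. A barcode had to show at least 500 genes, at most 15% mitochondrial unique molecular identifiers (UMIs, 1 per captured transcript molecule), at most 1 of the endothelial genes Plvap, Flt1 and Pecam1, and less than 20% of its UMIs in the hormone genes Ins1, Ins2, Gcg, Sst and Ppy. The pericyte side showed at least 3 of Rgs5, Pdgfrb, Cspg4, Abcc9, Kcnj8, Notch3 and Acta2 and at most 1 of Pdgfra, Dcn and Lum, and the fibroblast side showed at least 2 of those last 3. These rules took 160 pericyte cells and 62 fibroblast cells out of 7490 cells that passed the limits on genes and mitochondrial UMIs, among 16162 barcodes. The islets came from 3 female, non-diabetic NOD-SCID mice of 10 to 11 weeks, whose scid mutation leaves the animals without functional lymphocytes of either the T or the B lineage, with 1 library of droplet-based 3′ single-cell RNA sequencing per mouse and no treatment or second group. Per the labels, islets were freed with collagenase through the bile duct, cleaned on a density gradient and dissociated with TrypLE.

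Pericytes are mural cells that sit within the basement membrane of capillaries, depend on endothelial Pdgfb and its receptor Pdgfrb, and in the islet are known to regulate capillary width. They grade into arteriolar smooth muscle, which carries more actin and myosin of the contractile type. Fibroblasts lie in the interstitium and around larger vessels and ducts and are known for secreting fibrillar collagens, proteoglycans and growth factors.

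Pericyte cells numbered 17, 29 and 114 and fibroblast cells 7, 15 and 40 in mice 1, 2 and 3, the order in which every set of 3 values is given. They made up 1.48%, 1.07% and 3.13% of the kept cells on the pericyte side and 0.611%, 0.555% and 1.10% on the fibroblast side, so each mouse had 2.43, 1.93 and 2.85 pericyte cells for 1 fibroblast cell. The exact binomial 95% intervals of these shares, which cover counting error only, ran from 0.867% to 2.37%, 0.719% to 1.54% and 2.59% to 3.75% for pericyte cells and from 0.246% to 1.26%, 0.311% to 0.913% and 0.786% to 1.49% for fibroblast cells. The intervals of both sides overlapped in mice 1 and 2 and were apart in mouse 3. The rule's own count of marker genes spread widely on the pericyte side, where 19, 45, 43, 41 and 12 cells showed 3, 4, 5, 6 and 7 of the 7 genes, and 157 of the 160 showed none of the 3 fibroblast genes. On the fibroblast side 46 cells showed all 3 fibroblast genes and 16 showed 2, while 12 of the 62 also showed 3 or more pericyte genes. By number of genes, 17 cells with 2 pericyte genes and 22 with 1 fibroblast gene fell short of the rule. Those 17 were much deeper, with median UMIs of 55368.5, 19095 and 13609. Pericyte cells with exactly 3 of the genes had 3039, 2898 and 2764.

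The libraries held 32389170, 48076507 and 57849496 UMIs. Median UMIs per cell were 7791, 5864 and 3795 for pericyte cells and 14072, 5025 and 9142.5 for fibroblast cells, and the summed UMIs behind the comparison were 199625, 221420 and 461529 against 99594, 100315 and 392142. Median mitochondrial shares were 8.37%, 6.39% and 3.72% against 4.50%, 4.52% and 3.06%, higher on the pericyte side in each mouse. One cell gave 25.1% and 26.5% of the pericyte sum in mice 1 and 2 (2.82% in mouse 3), and one gave 25.9%, 16.3% and 8.57% of the fibroblast sums. Insulin transcripts, which neither cell type makes, took 4.03%, 4.00% and 1.73% of the pericyte sums and 2.03%, 3.82% and 0.693% of the fibroblast sums, a level of RNA from other cells that was higher on the pericyte side in each mouse. Mice 1 and 2 shared 148 barcodes and the other pairs 9 and 13, and no cell of either side was among them. The part of depth, mitochondrial share and RNA from other cells in the differences described here was not tested, except for the settings named beside a result.

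The marker genes themselves showed what the rule selected, and their values are a description only. Levels are CPM (counts scaled to a common library total) of the summed UMIs, scaled with TMM factors. Rgs5, a regulator of G-protein signalling typical of mural cells, stood at 3847, 6265 and 6866 CPM in pericyte cells and 779, 280.1 and 139 CPM in fibroblast cells. Acta2, smooth muscle actin, stood at 6600.4, 1142 and 4761 against 319, 40.0 and 221 CPM, and Kcnj8, the pore of the ATP-sensitive potassium channel, at 289, 288 and 355 against 23.6, 53.4 and 16.4 CPM. Acta2 varied more between mice than Kcnj8 on the pericyte side, with mouse 2 lowest. Pdgfrb, the receptor for the platelet-derived growth factors, was nearest between the sides, at 412, 475 and 492 against 259.6, 133 and 134 CPM, and 31 of 62 fibroblast cells showed a UMI of it against 130 of 160 pericyte cells; after every cell was thinned to 2000 UMIs, with shallower cells left out, these became 11 of 58 and 83 of 147. Dcn, the proteoglycan decorin, stood at 6654, 14086 and 11903 CPM in fibroblast cells and at 0, 0 and 75.6 CPM in pericyte cells, and no pericyte cell held a UMI of Lum (lumican) or Pdgfra. Plvap, 1 of which the rule allowed, was found in 22 of 62 fibroblast cells (42 UMIs) and in 5 of 160 pericyte cells (5 UMIs), and in 6 of 58 and 1 of 147 after thinning.

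Markers that the rule did not use went mostly with the names of both sides. Of the checks chosen for pericytes, Higd1b, Ndufa4l2 and Mcam were higher in pericyte cells, while Vtn (436, 560.3 and 584 against 755, 707 and 358 CPM, adjusted p = 0.85 by edgeR) and Anpep (adjusted p = 0.38) did not pass the test. For fibroblasts, Clec3b, Cd34, Gsn, Igfbp6 and Dpt were higher in fibroblast cells, and Pi16, with 0 and 55 UMIs, was too low to be tested. The pericyte side also held cells with the smooth muscle genes Acta2, Myh11 and Tagln, and these are described as part of it, since the rule does not part pericytes from smooth muscle. Defining endothelial genes were at or near 0 on both sides, with 0 UMIs of Cdh5 and Cldn5, 3 and 1 of Kdr, and 4 and 1 of Emcn in pericyte and fibroblast cells.

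Outside the genes of the rule, 3407 genes had enough counts to be tested between the sides across the 3 mice, with the mouse as a block (edgeR quasi-likelihood test, threshold 0.05 on the adjusted p). The Benjamini-Hochberg adjustment ran over all 3435 genes of the fit. Of these, 28 were genes of the rule or mitochondrial genes, which the counts leave out. The test called 832 genes (24.4%), of which 385 (11.3%) were higher in pericyte cells and 447 (13.1%) higher in fibroblast cells, and a difference of 2-fold or more was reached by 361 and 412 of them. All but 5 of the calls, 827 of 832, had the same sign in 3 of 3 mice. In 784 of the calls the 3 mice of each side did not overlap, so this was common among calls. Over all 3407 genes it held for 617 (18.1%) toward pericyte cells and 658 (19.3%) toward fibroblast cells. The median log2 fold change of all tested genes, pericyte minus fibroblast, was 0.04, and the median of its absolute size was 0.53. A gene present on only 1 side reached the test only through that side and so had to differ, and cells were chosen by markers with which many of these genes go along, so the counts describe how the selected cells differ. Without mouse 3, which gave 114 of the 160 pericyte cells and 40 of the 62 fibroblast cells, 421 of 2457 genes were called. The 3 mice are separate animals, but each sum comes from 1 library.

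**Figure D1:**
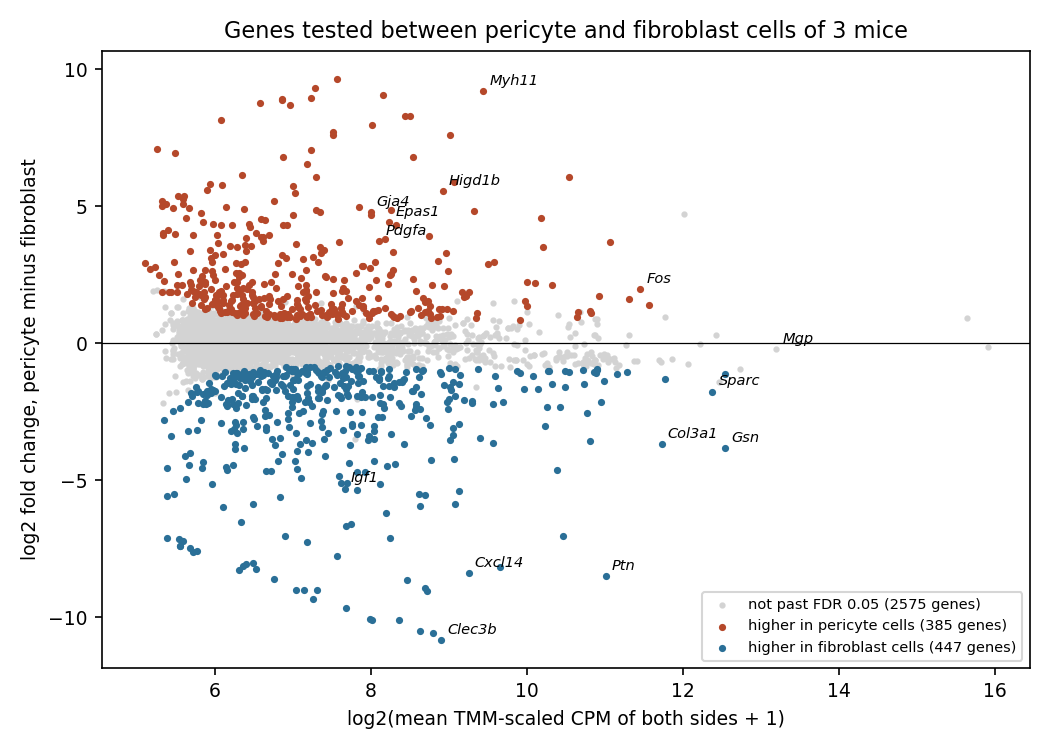
Each point is 1 of the 3407 genes tested; the horizontal axis is the log2 of the mean TMM-scaled CPM of both sides plus 1 and the vertical axis the log2 fold change, pericyte minus fibroblast. Calls fan out in both directions (385 above 0 and 447 under 0), and Mgp, among the highest genes of both sides, lies near 0.

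Among the 12 genes with the largest differences toward pericyte cells were a myosin, a receptor and calcium-binding proteins. Myh11, the smooth muscle myosin heavy chain (chr16:14194535-14291372; gene positions are those of GENCODE M21 on GRCm38), stood at 1377, 1073 and 1697 CPM in pericyte cells and at 11.8, 0 and 0 CPM in fibroblast cells, where 1 UMI was counted in all (log2 fold change 9.20, SE 0.68, edgeR adjusted p = 2.38e-08). A fitted value for so few counts depends on the prior count, and the ratio of its pooled CPM was 782 (95% counting interval 140.1 to 30921). Ednrb, an endothelin receptor, stood at 608, 608 and 948 against 0, 13.3 and 0 CPM (log2 fold change 8.31, SE 0.69, edgeR adjusted p = 1.44e-07), with a pooled ratio of 421 (95% counting interval 75.2 to 16639). Both genes were high in every pericyte sum, and their sides did not overlap. Mustn1, a small nuclear protein of muscle and skeleton, stood at 885, 352 and 827 against 0, 0 and 2.73 CPM, a pooled ratio of 383 (95% counting interval 68.5 to 15155).

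Among the 12 genes that led on the pericyte side, 9 had no UMI in any fibroblast sum, so only a lower bound of the fold can be given, taken from a floor of 3 UMIs over the group. Map3k7cl was at least 75.6-fold higher (289, 309.5 and 534 CPM), and Pcp4l1, a small protein with a calmodulin-binding motif, at least 59.5-fold (350.3, 171 and 405 CPM). Casq2, a calcium-binding protein of the sarcoplasmic reticulum, was at least 52.3-fold higher, with 141, 475 and 279 CPM. These 3 genes were present in all pericyte sums, and Casq2 was highest in mouse 2. The others were Krt18 (at least 71.6-fold), Serpini1 (45.6), Nrip2 (44.7), Tesc (42.3), Sncg (39.6) and Slc38a11 (26.6). Krt18, a keratin of simple epithelia, differed from the rest in its spread, with 842, 768 and 89.3 CPM, 1 cell held 44.4% of its UMIs, and without the cells with 3 or more duct markers described further on it had too few counts to be tested. Without the replicate block, Krt18 missed the threshold (adjusted p = 0.12 by edgeR).

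**Figure D2:**
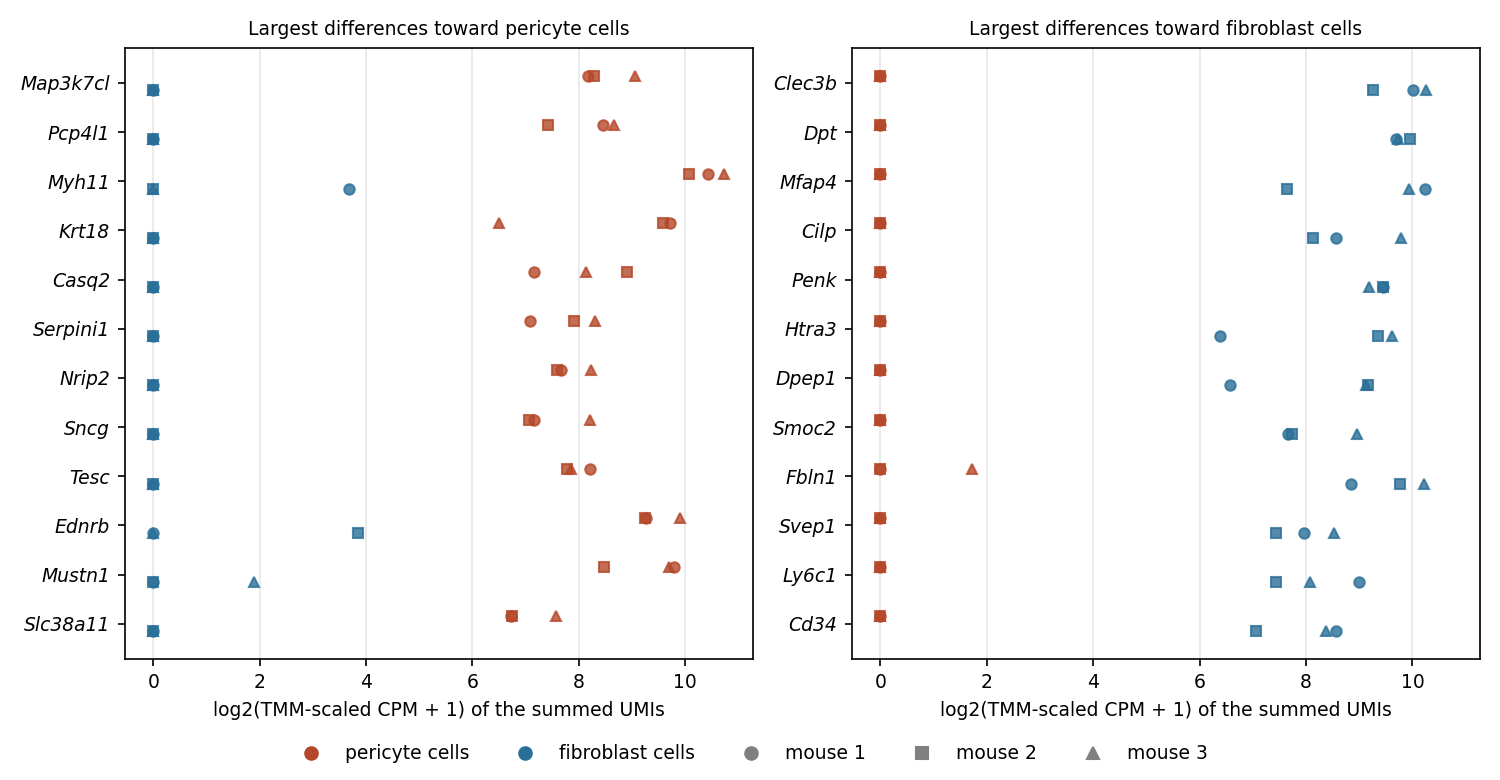
The log2 of TMM-scaled CPM plus 1 of the 12 genes with the largest fold change in each direction; each point is the summed UMIs of 1 mouse, red for pericyte and blue for fibroblast cells. On the right, 11 of 12 genes have 0 UMIs in all pericyte sums; Krt18, on the left, is lower in mouse 3 than in mice 1 and 2.

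Of 20 known pericyte genes outside the rule, 17 were tested, 12 were higher in pericyte cells and 1 in fibroblast cells (11.3% and 13.1% of all genes tested), with a median log2 fold change of 2.34 beside 0.04 for all genes. Rgs4, another regulator of G-protein signalling, stood at 1026, 822 and 1312 against 35.4, 0 and 19.1 CPM (log2 fold change 5.89, SE 0.50, edgeR adjusted p = 6.73e-08), and Cox4i2, a subunit of cytochrome c oxidase, at 867, 1462 and 1383 against 47.2, 26.7 and 49.1 CPM (log2 fold change 4.84, SE 0.42, edgeR adjusted p = 8.54e-08). Higd1b, a mitochondrial inner-membrane protein, stood at 584, 1083 and 1152 against 70.8, 0 and 8.19 CPM (log2 fold change 5.56, SE 0.86, edgeR adjusted p = 0.003). The sides were apart for all 3. Kcnk3, a background potassium channel, and Mcam, an adhesion molecule, had log2 fold changes of 4.35 and 4.31, and the subunits Gucy1a1 and Gucy1b1 of guanylate cyclase, the nitric oxide receptor, 2.12 (adjusted p = 0.048) and 2.34. Ednra, the other endothelin receptor, was higher as well (1.65), and Steap4 was the gene that was higher in fibroblast cells (-1.33, adjusted p = 0.048 by edgeR), which neither DESeq2 nor the fit without the replicate block called. Vtn, Anpep, Cd248 (0.12) and Ebf1 (0.31), an early B-cell factor also present in mesenchyme, did not pass.

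The contractile apparatus was higher in pericyte cells in 12 of 15 tested genes of a list of 20, with none higher in fibroblast cells and a median log2 fold change of 2.14. The count was 14 of 19 without mouse 2 (median 3.62), 8 of 14 without mouse 3 and 10 of 15 by DESeq2. Tagln (transgelin, an actin-binding protein) stood at 7424, 1035 and 3499 CPM in pericyte and 425, 66.7 and 382 CPM in fibroblast cells (log2 fold change 3.70, SE 0.39, edgeR adjusted p = 6.74e-07). Myl9, the regulatory myosin light chain, stood at 2501, 1227 and 2782 against 259.6, 227 and 109 CPM (log2 fold change 3.52, SE 0.44, edgeR adjusted p = 2.29e-05). In both genes every pericyte sum lay above every fibroblast sum. Tpm2, a tropomyosin, had a log2 fold change of 4.58, Tpm1 2.14, Lmod1 (leiomodin, which nucleates actin) 5.48, Des (desmin, an intermediate filament) 2.08 and Mylk (myosin light chain kinase) 1.51. Cald1, Csrp1 and Smtn did not pass. Pln, Actg2 and Cnn1 were left out by the limit on low counts, with 158, 104 and 49 UMIs in pericyte and 0, 0 and 1 in fibroblast cells.

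The CArG box is the element bound by serum response factor in front of many contractile genes. Its strict form CCWWWWWWGG (W is A or T) was searched on both strands in the 250 bases before the RefSeq start sites (GRCm38.p6). A stretch that departs from this form by 1 base, such as ccctatatgg before Acta2, was not counted. Of 17 contractile genes with an entry, Acta2 included, 1 held the strict form (5.88%), against 439 of 27025 genes (1.62%) and 1 of 17 adventitial fibroblast genes. That gene was Myl9, whose window chr2:156775214-156775413 (plus strand, 200 bases that end 51 bases before its start) is shown because Myl9 is among the genes that moved together; capitals mark the box, which begins 161 bases before the start.
Myl9: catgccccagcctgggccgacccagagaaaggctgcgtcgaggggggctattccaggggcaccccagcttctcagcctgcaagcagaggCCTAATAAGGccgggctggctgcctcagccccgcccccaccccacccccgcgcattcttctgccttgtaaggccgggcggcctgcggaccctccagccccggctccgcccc
No match says only that these letters are not in this window.

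Genes of calcium and potassium handling were tested in 6 of 20 cases, and 4 were higher in pericyte cells (median log2 fold change 2.25; without mouse 3, 3 of 7 and 1.34). Ano1, a calcium-activated chloride channel, had 159.8, 197 and 195 against 11.8, 0 and 8.19 CPM (log2 fold change 4.55, SE 0.51, edgeR adjusted p = 1.50e-06). The phosphodiesterases Pde5a and Pde3a, which degrade cyclic nucleotides, had log2 fold changes of 3.29 and 3.14, and Atp2a2, the calcium pump of the reticulum, 1.37. Itpr1 and Stim1 did not pass. Through the Notch pathway mural cells respond to endothelial ligands. Of a list of 18 genes for it, 6 were tested and 4 were higher in pericyte cells (11.3% of all genes tested). They were the ligand Jag1 (2.44, edgeR adjusted p = 0.007), the receptor Notch1 (1.77, edgeR adjusted p = 0.009), the target Hes1 (1.65, edgeR adjusted p = 7.06e-04) and Nrip2. Nrip2, with 0 fibroblast UMIs, is neither a ligand nor a receptor of the pathway. Heyl and Rbpj did not pass. The count for the Notch list was 2 of 5 without mouse 3 and 2 of 6 by DESeq2. DESeq2 left Jag1 (adjusted p = 0.064) and Notch1 (adjusted p = 0.21) over the threshold.

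Of 39 mesenchymal transcription factors 18 were tested, with 5 higher in pericyte and 2 in fibroblast cells (11.3% and 13.1% of all genes tested). The 2 toward fibroblast cells were no larger a share than that of all genes. The median log2 fold change was -0.11. The median varied with the setting and the factors tested: it was 0.77 over 12 without mouse 3, 1.26 over 11 without the cells that carry markers of other types, 1.02 over 12 without the deepest cell of each sum and 2.05 over 6 in thinned cells. Higher in pericyte cells were Epas1 (a hypoxia-inducible factor), Tbx3 and Tbx2 (T-box factors), Mef2c and Nr2f2. Epas1 stood at 406, 608 and 698 against 47.2, 26.7 and 19.1 CPM (log2 fold change 4.44, SE 0.45, edgeR adjusted p = 4.63e-07), Tbx2 at 270.4, 272 and 409.9 against 70.8, 93.4 and 79.2 CPM (log2 fold change 2.04), and the log2 fold changes of Tbx3 and Mef2c were 3.55 and 3.35. After thinning, Epas1 had UMIs in 67.3% of pericyte, 5.17% of fibroblast and 67.9% of endothelial cells of the same libraries (136 of 160, 9 of 62 and 351 of 399 before it). Higher in fibroblast cells were Meox2 (-1.82) and Tcf21 (82.6, 320.1 and 128 against 36.9, 85.4 and 101 CPM, adjusted p = 0.048 by edgeR), neither of which DESeq2 called, and without mouse 3 the factors higher in pericyte cells numbered 3 of 12 tested. Prrx1 (-0.74), Zeb2 (-0.31) and Nkx2-3 (0.55), a homeobox factor of pancreatic and gut mesenchyme, did not pass the test.

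The pericyte side was not uniform. Acta2 was found in 10 of 17, 13 of 29 and 72 of 114 pericyte cells, and 1 cell held 23.3% of all its UMIs on that side. Cells with an Acta2 UMI held Myh11 at 1994, 1841 and 2137 CPM (of the summed UMIs, without TMM) and those without at 148, 240.2 and 205 CPM. Tagln stood at 11422, 2014 and 4495 against 53.0, 62.0 and 189 CPM, and Tpm2 at 5222, 1873 and 2561 against 244, 194 and 512 CPM. For these 3 contractile genes no mouse of one kind reached the other. Pln (phospholamban), Actg2 and Cnn1 had 0 UMIs in all cells without Acta2. Higd1b and Rgs5 did not go one way in all mice: Higd1b stood at 569.7, 1332 and 912 CPM with Acta2 and 371, 619.9 and 1560 CPM without, and Rgs5 at 2193, 5944 and 5481 against 4188, 4843 and 9171 CPM. Kcnj8 was higher without Acta2 in each mouse, at 318, 248 and 788 against 161, 238 and 164 CPM.

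Depth enters such a split, so the same cells were thinned to 2000 UMIs. Then 9 of 17, 10 of 29 and 62 of 101 cells showed Acta2, and Myh11 averaged 2.78, 3.90 and 3.58 UMIs per cell with Acta2 and 0.5, 0.684 and 0.410 without. Rgs5 averaged 4.22, 10.9 and 10.7 UMIs with and 13.1, 15.9 and 17.9 without, so at this depth it was lower with Acta2 in each mouse. The share of cells with Kcnj8 lay furthest apart in mouse 3, 24.2% with and 61.5% without Acta2, against 33.3% and 37.5% in mouse 1 and 30.0% and 36.8% in mouse 2. Acta2 belongs to the rule, so none of these values was tested, and cells without Acta2 had to show 3 of the other 6 rule genes, Kcnj8 and Rgs5 among them.

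**Figure D3:**
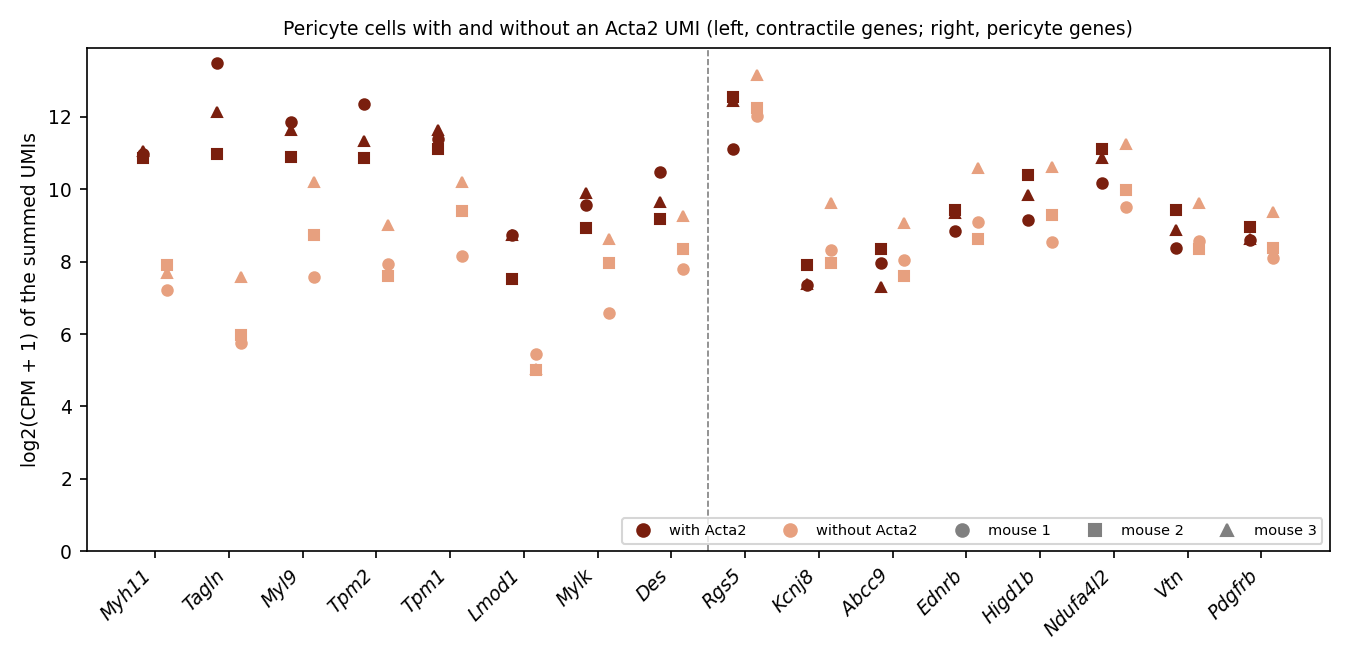
The log2 of CPM plus 1 in the summed UMIs of pericyte cells with (dark) and without (light) an Acta2 UMI, 1 point per mouse, for 8 contractile genes on the left and 8 pericyte genes on the right of the dashed line. Myh11, Tagln and Tpm2 separate in all mice, whereas the points of Rgs5 and Higd1b overlap.

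Toward fibroblast cells the 12 leading genes included matrix proteins, an opioid precursor and the membrane proteins Dpep1, Cd34 and Ly6c1. Of the 12 genes that led, 11 had no UMI in any of the 160 pericyte cells. Clec3b (tetranectin, a plasminogen-binding protein; chr9:123150946-123157432) stood at 1026, 614 and 1218 CPM in fibroblast cells, at least 288-fold above the floor of the pericyte cells, and Dpt (dermatopontin, a collagen-binding protein; chr1:164796644-164824266) at 826, 987 and 846 CPM, at least 226-fold. Mfap4, a microfibril-associated protein, stood at 1203, 200.1 and 977 CPM (at least 236-fold), with mouse 2 lowest. Penk, which encodes the opioid precursor proenkephalin, was even across mice at 696, 694 and 581 CPM (at least 161-fold). The lower bounds of Cilp, Htra3, Dpep1, Smoc2, Svep1, Cd34 and Ly6c1 were 188, 169.9, 127, 107, 83.5, 81.0 and 76.5. Fbln1 (fibulin 1) had 1 pericyte UMI and a pooled ratio of 802 (95% counting interval 143 to 31735). Htra3 missed the threshold without the replicate block (adjusted p = 0.060 by edgeR). Clec3b was found in 48 and Dpt in 51 of 62 fibroblast cells, and in 1 of 399 endothelial cells each. The endothelial group leaves out cells with 3 or more pericyte or 2 or more fibroblast genes of the rule.

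Fibrillar collagens and elastic fibre genes were higher in fibroblast cells in 19 of 20 tested genes of 24 (13.1% of all genes tested), with a median log2 fold change of -3.68. Col3a1 stood at 9981, 3215 and 5779 CPM in fibroblast cells and 442, 502 and 403 CPM in pericyte cells (log2 fold change -3.68, SE 0.42, edgeR adjusted p = 2.15e-06), and Col1a1 at 4377, 1254 and 2744 against 92.2, 0 and 6.87 CPM (log2 fold change -7.03, SE 0.69, edgeR adjusted p = 5.15e-05). Both chains were lowest in mouse 2 among the fibroblast sums, and neither overlapped with the pericyte sums. Col1a1 and Col1a2, the chains of type I collagen, differed in what was left on the pericyte side: 18 UMIs of Col1a1 against 210 of Col1a2, with log2 fold changes of -7.03 and -3.55. Col3a1 was found in 100 of 160 pericyte cells and in 1 of 399 endothelial cells, and after thinning in 67 of 147 and 1 of 361. The microfibril genes Mfap2 (-6.53) and Fbn1 (-3.19), the fibulin Fbln5 (-5.61), elastin (Eln, -2.10) and fibronectin (Fn1, -4.29) all passed. Postn (periostin) was the 1 gene that did not (-1.34, adjusted p = 0.55 by edgeR).

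The CCAAT box (CCAAT or, on the other strand, ATTGG) is a general promoter element known from several collagen genes. It was present before 5 of 15 genes of this list with an entry (33.3%) and before 10133 of 27025 genes (37.5%), a share near that of all genes. RefSeq lists a pair of start sites for Fbln5, of which the other, at chr12:101818485-101818734, has no CCAAT box in its window. Fbln5 is shown as a member with the box and with 165, 320.1 and 183 CPM in fibroblast against 0, 5.34 and 4.58 CPM in pericyte cells. Its window chr12:101819170-101819369 (minus strand, GRCm38.p6, RefSeq) again ends 51 bases before the start, and the box in capitals begins 150 bases before it.
Fbln5: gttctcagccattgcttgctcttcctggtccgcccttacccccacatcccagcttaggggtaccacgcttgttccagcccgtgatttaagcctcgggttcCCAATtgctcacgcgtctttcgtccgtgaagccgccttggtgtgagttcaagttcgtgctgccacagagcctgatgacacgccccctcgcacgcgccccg
The match is a description of letters.

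Basement membrane genes parted in both directions: 8 of 12 tested genes of 23 were higher in fibroblast and 1 in pericyte cells (median log2 fold change -1.41). Col15a1 stood at 1274, 347 and 789 CPM in fibroblast and 49.2, 16.01 and 2.29 CPM in pericyte cells (log2 fold change -5.53, SE 0.57, edgeR adjusted p = 1.59e-05), and Lama2, Lamb1, Nid1 and Hspg2 (perlecan) had log2 fold changes of -2.48, -3.01, -2.32 and -3.05. Col4a1 was higher in fibroblast cells by a smaller margin (2088, 1240.5 and 1592 against 922, 896 and 634 CPM, edgeR adjusted p = 0.029) and Col4a2 did not pass (-0.54, edgeR adjusted p = 0.29). Col18a1, the precursor of endostatin, was the gene higher in pericyte cells (1.36, edgeR adjusted p = 0.014), a call that DESeq2 did not make. No gene of the list was higher in pericyte cells without mouse 1, without mouse 2 or in thinned cells (5 tested). Without mouse 3, 4 of 11 were higher in fibroblast cells. Among small leucine-rich proteoglycans and other matrix proteins, 10 of 15 tested genes were higher in fibroblast and 2 in pericyte cells (median -2.13). The latter count was 1 by DESeq2, without the replicate block and without any of the 3 mice in turn. Bgn (biglycan) stood at 3976, 2334 and 3349.7 against 916, 528 and 756 CPM, and Aspn (asporin), of the same protein family, went the other way with 757 UMIs in pericyte and 99 in fibroblast cells (log2 fold change 2.63, SE 0.55, edgeR adjusted p = 0.007). Ltbp1, which binds latent TGF-beta, was higher in pericyte cells (1.07) and its relative Ltbp4 in fibroblast cells (-2.21).

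Enzymes and inhibitors of the matrix were higher in fibroblast cells in 14 of 19 tested genes of 26 and in pericyte cells in 1 (median -2.46). Serpinf1, which encodes the anti-angiogenic factor PEDF, stood at 1074, 387 and 1021 CPM against 0, 0 and 2.29 CPM, where the latter is 1 UMI and the pooled ratio 736 (95% counting interval 132 to 29145). The lysyl oxidase relative Loxl1 had a pooled ratio of 118 (95% counting interval 40.0 to 578), and the metalloproteinases and inhibitors Mmp2 (-5.35), Mmp14 (-2.46), Timp1 (-4.37) and Timp2 (-2.13) were higher in fibroblast cells. Adamts1 was the gene higher in pericyte cells (2.05, edgeR adjusted p = 0.016), and no gene was without mouse 3. Timp3, with 1032 and 240 UMIs, did not pass (1.56, edgeR adjusted p = 0.46). Of genes known from adventitial and universal fibroblasts, 10 of 15 tested were higher in fibroblast cells and none in pericyte cells (median -3.02). Gsn (gelsolin) stood at 4979, 15953 and 12730 against 584, 629.7 and 964 CPM, and Igfbp6 had a pooled ratio of 329 (95% counting interval 58.5 to 13071). Mgp, a matrix inhibitor of calcification, was shared: it stood at 7479, 8959 and 9183 CPM in pericyte and 9957, 7189.6 and 13494 CPM in fibroblast cells (log2 fold change -0.22, SE 0.35, edgeR adjusted p = 0.70) and was found in 149 of 160 and 59 of 62 cells, against 22 of 399 endothelial cells. After thinning these were 132 of 147, 53 of 58 and 12 of 361. Ly6c1 and Cd34 from this list are also made by endothelial cells, at means of 2276 and 606 CPM there.

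The 12 fibroblast cells with 3 or more pericyte genes (2, 5 and 5 per mouse) held Rgs5 at 1538, 581 and 742 CPM, where the other 50 held 17.4, 0 and 0 CPM, which the rule genes used for the split fix. Of the 20 pericyte genes outside the rule, 5 were higher in these cells in each mouse (Vtn, Cox4i2, Gucy1a1, Gucy1b1 and Ebf1) and the other 15 were not, among them Anpep, Cd248, Steap4 and Rgs4, while Ednrb had no UMI in them. Vtn stood at 1183, 1107 and 1339 against 244, 203 and 121 CPM, and Cox4i2 at 94.6, 55.4 and 262 against 0, 0 and 0 CPM. Col1a1 stood at 4164, 914 and 3217 against 3402, 950.2 and 2424 CPM, with mouse 2 low in both. Whether these barcodes hold 1 cell or several cannot be told apart here. Leaving them out gave 767 calls, and the pericyte genes outside the rule then had 13 of 17 genes higher in pericyte cells and a median log2 fold change of 3.39.

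Secreted growth factors split between the sides, with 7 of 13 tested genes of 34 higher in fibroblast and 4 in pericyte cells. Ptn (pleiotrophin, a heparin-binding factor; chr6:36714929-36810220) stood at 4141, 3802 and 4379 CPM in fibroblast and 18.4, 16.01 and 4.58 CPM in pericyte cells (log2 fold change -8.48, SE 0.53, edgeR adjusted p = 6.50e-09). It was found in 59 of 62 fibroblast and 5 of 160 pericyte cells, and in 52 of 58 and 1 of 147 after thinning. Its relative Mdk (midkine) went the same way (-2.89), as did Igf1 (-5.31), Csf1 (the macrophage growth factor, -4.32), Bmp4 (-3.16) and Gas6 (-2.40), and Gdf10 had a pooled ratio of 553 (95% counting interval 98.7 to 21903). Pdgfa stood at 455, 502 and 570.2 CPM in pericyte and 23.6, 66.7 and 35.5 CPM in fibroblast cells (log2 fold change 3.72, SE 0.39, edgeR adjusted p = 6.89e-07), while its receptor Pdgfra, a gene of the rule, had UMIs in fibroblast cells and none in pericyte cells. Bmp5 (64 UMIs against 1) and Tgfb2 (2.303) were also among the genes higher in pericyte cells. Vegfa (0.50) and Kitl (1.49) did not pass. The list's median was -2.40, and it was -0.0082 without mouse 2 (8 higher in fibroblast and 5 in pericyte cells of 18). The counts were 7 and 1 of 11 without mouse 3, 7 and 2 of 13 by DESeq2, 7 and 2 of 10 with at most 10% mitochondrial UMIs and 8 and 2 of 14 with no endothelial gene allowed.

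All 4 chemokines that passed were higher in fibroblast cells, out of 6 tested of a list of 22 chemokines and cytokines. Cxcl14 stood at 378, 1000.4 and 2263 CPM against 6.15, 0 and 4.58 CPM, a pooled ratio of 465 (95% counting interval 159 to 2259), and was lowest in mouse 1 among the fibroblast sums. Cxcl12, which attracts lymphocytes and blood progenitors, stood at 271, 587 and 379 against 18.4, 26.7 and 66.4 CPM (log2 fold change -3.30, SE 0.38, edgeR adjusted p = 5.19e-06), and Ccl11 (eotaxin) and Ccl19 had log2 fold changes of -3.30 and -3.11. Il34 and Cxcl1 did not pass. In the Wnt pathway, the agonist Rspo3 was at least 39.8-fold higher in fibroblast cells (70.8, 347 and 131 CPM, 0 pericyte UMIs) and the antagonist Sfrp1 was higher there too (-5.09, edgeR adjusted p = 0.004), out of 5 tested of 29 modulators of Wnt and BMP signals (4 of 8 without mouse 1, 6 of 9 without mouse 2 and 1 of 2 without mouse 3).

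**Figure D4:**
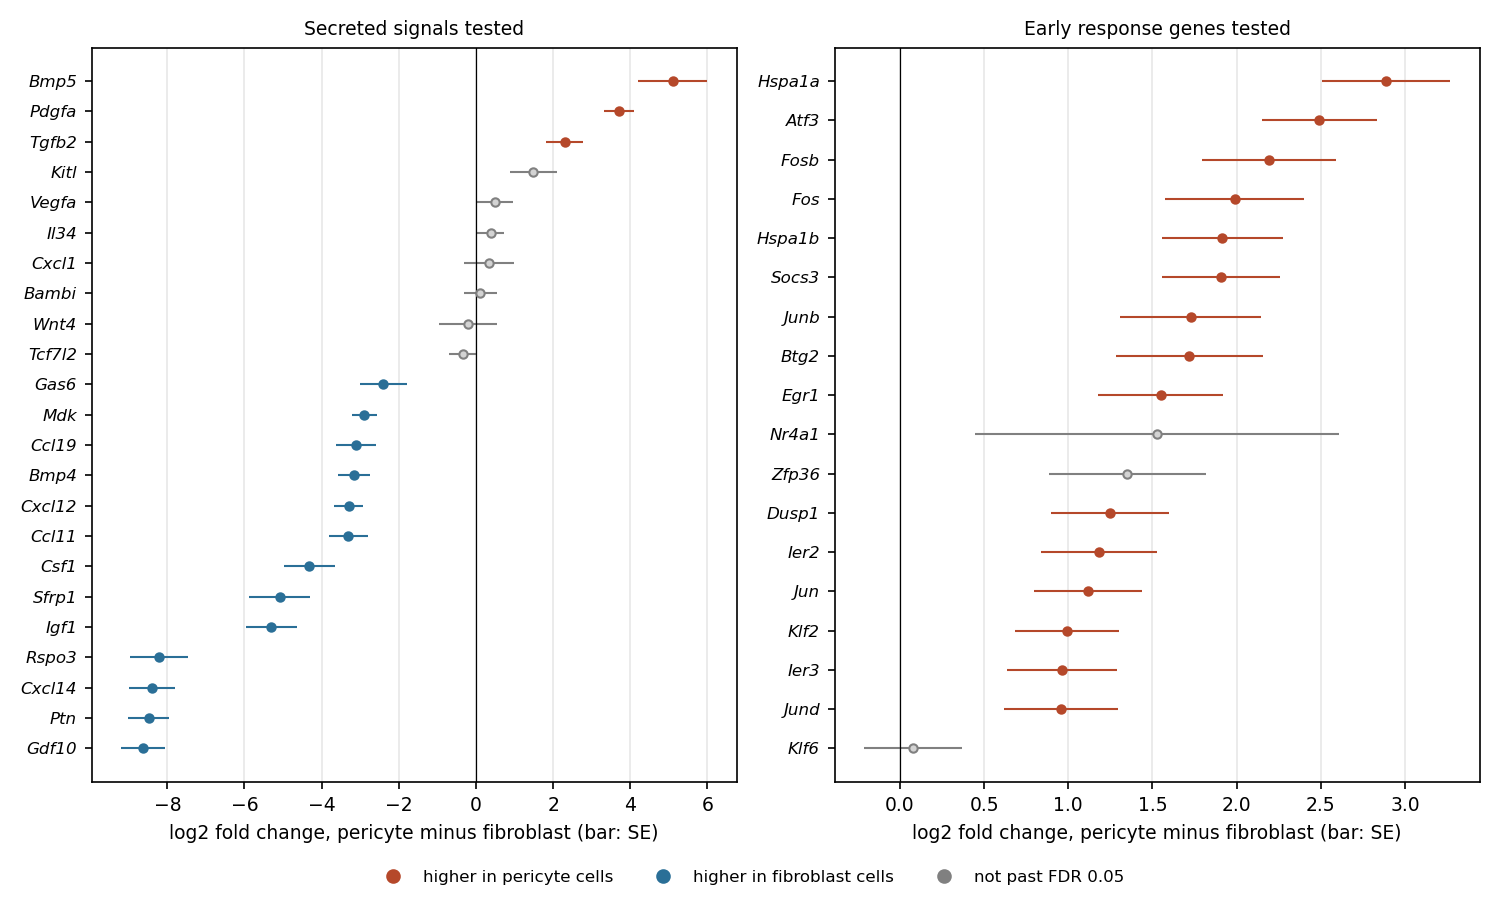
The log2 fold change, pericyte minus fibroblast, with its standard error, of tested growth factors, chemokines, cytokines and Wnt or BMP modulators (left; 1 growth factor is not shown) and of the early response genes (right); grey points did not pass. Bmp5, Pdgfa and Tgfb2 lie on the pericyte side, Gdf10 and Ptn at the fibroblast end, and 15 of 18 early response genes passed toward pericyte cells.

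Of 36 receptors 14 were tested, 2 higher in pericyte and 6 in fibroblast cells (11.3% and 13.1% of all genes tested). The 2 toward pericyte cells were a share near that of all genes. The median was -0.61. Without mouse 3 the counts were 1 and 4 of 11 with a median of -1.07, and DESeq2 called 2 and 3 of 14. Npy1r, a receptor for the sympathetic transmitter neuropeptide Y, stood at 86.0, 96.1 and 357 against 23.6, 0 and 19.1 CPM (log2 fold change 3.88, SE 0.50, edgeR adjusted p = 7.62e-06; without mouse 3, adjusted p = 0.058), with mouse 3 highest. S1pr3, a receptor for sphingosine 1-phosphate, stood at 123, 165 and 135 against 0, 26.7 and 10.9 CPM (log2 fold change 3.52). Lpar1, for lysophosphatidic acid, had 0 pericyte UMIs and was at least 48.7-fold higher in fibroblast cells, and Pdgfrl, Tgfbr2 (the type 2 TGF-beta receptor), Il1r1, Il6st and Eng had log2 fold changes of -3.95, -2.46, -1.498, -1.32 and -1.05. Among adhesion genes 3 of 12 tested were higher on each side, beside 11.3% and 13.1% of all genes tested. The gap junction proteins Gja4 (connexin 37) and Gjc1 (connexin 45) stood at 412, 438 and 598 against 47.2, 26.7 and 5.46 CPM and 215, 406 and 513 against 47.2, 107 and 57.3 CPM, and the collagen-binding integrin Itga1 had a log2 fold change of 1.65. Itgbl1 and Cdh11 (cadherin 11), with 0 pericyte UMIs, were at least 59.1-fold and 42.2-fold higher in fibroblast cells, and Sdc2 was higher there as well (-0.99). Itgb1, the integrin subunit that pairs with many others, did not pass (0.32, edgeR adjusted p = 0.51).

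Complement genes were higher in fibroblast cells in 6 of 9 tested genes of 13 (median -2.34), and none was higher in pericyte cells. C3, the central component, stood at 425, 440.2 and 857 against 24.6, 0 and 4.58 CPM (log2 fold change -6.19, SE 0.62, edgeR adjusted p = 1.91e-05), C4b had a log2 fold change of -4.68 with mouse 1 lowest at 82.6 CPM, and Serping1, the C1 inhibitor, stood at 1652, 2281 and 2086 against 215, 342 and 769 CPM. Genes of antigen presentation and the interferon response were higher in fibroblast cells in 7 of 12 tested genes (median -1.13). B2m, the light chain of class I molecules, stood at 1262, 1254 and 1542 against 344, 267 and 302 CPM (log2 fold change -2.16, SE 0.32, edgeR adjusted p = 4.14e-05), and the heavy chains H2-D1 and H2-K1 had log2 fold changes of -1.18 and -1.14. This count was the less stable of the pair: it was 4 of 16 without mouse 2, 3 of 11 without mouse 3 and 2 of 12 by DESeq2. Irf9, Irf1, Psmb8 and Ifi27 were among those that did not pass.

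The early response genes that tissue dissociation is known to induce were higher in pericyte cells in 15 of 18 tested genes of 23 (median log2 fold change 1.54), and none was higher in fibroblast cells. Fos stood at 2735, 4482 and 5601 CPM in pericyte and 342, 2441 and 1228 CPM in fibroblast cells (log2 fold change 1.99, SE 0.41, edgeR adjusted p = 0.002), with mouse 2 of the fibroblast sums near mouse 1 of the pericyte sums. Atf3, a stress-induced factor, stood at 277, 720.4 and 534 against 35.4, 160.1 and 90.1 CPM (log2 fold change 2.49, SE 0.34, edgeR adjusted p = 1.71e-05) and Hspa1a, a heat shock protein, at 664, 1105 and 2008 against 35.4, 213 and 303 CPM (log2 fold change 2.89, SE 0.38, edgeR adjusted p = 1.11e-05). Klf6, Nr4a1 and Zfp36 did not pass. The count was 5 of 18 without mouse 3 and 9 of 18 without the replicate block, with none higher in fibroblast cells in either. The list took 1.29%, 1.71% and 2.57% of the pericyte UMIs and 0.369%, 0.911% and 0.675% of the fibroblast UMIs, and in thinned cells 10 of 11 tested genes were higher in pericyte cells. The part of the mitochondrial share, which was also higher in pericyte cells in each mouse, was not tested.

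Of metabolic genes, 3 of 11 tested (27.3%) were higher in pericyte cells (median 0.79). Over all genes tested this share was 11.3%, and 24.4% in either direction. The 3 were Idh2 (1.33, edgeR adjusted p = 0.007), Eno1 (0.99, edgeR adjusted p = 0.032) and Cox8a (0.87, edgeR adjusted p = 0.049). The count was 0 by DESeq2, 1 without mouse 1, 0 without mouse 2, 2 without mouse 3 and 1 without the fibroblast cells with 3 or more pericyte genes. Of 18 retinoid and stellate cell genes 5 were tested. Lrat and Stra6, which belong to vitamin A storage and uptake, had 0 UMIs on both sides. Aldh1a1, which makes retinoic acid, and Vim (vimentin) were among the genes higher in fibroblast cells (log2 fold changes -2.75 and -1.35), while Nes (nestin; 1.63, edgeR adjusted p = 0.31) and Plin2 did not pass. Of the lipid genes, Pltp (phospholipid transfer, -3.02) and Lpl (lipoprotein lipase, -2.33) were higher in fibroblast cells. Apoe did not pass (-1.42, edgeR adjusted p = 0.26), at 4855, 7214 and 364 CPM in pericyte and 5852, 10684 and 4999 CPM in fibroblast cells. One cell held 58.5% of its pericyte UMIs, and without the cells with markers of other types its log2 fold change was -6.61, past the threshold of edgeR, a setting chosen after seeing the data. Flna (filamin A, 2.16) was higher in pericyte cells and Wwtr1, the Hippo pathway coactivator TAZ, in fibroblast cells (-0.95, edgeR adjusted p = 0.040). These were the 2 calls among 8 tested genes of the YAP and SRF list, a share of 25% near the 24.4% of all genes tested. DESeq2 did not call Wwtr1, and Ctgf and Cyr61 did not pass. Of 18 cell cycle genes 2 were tested, and Hmgb2 (1.55, edgeR adjusted p = 0.003) was higher in pericyte cells (adjusted p = 0.074 without mouse 3 and 0.13 by DESeq2). Mki67 had 1 UMI and Top2a none on the pericyte side, and both had none on the fibroblast side.

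**Figure D5:**
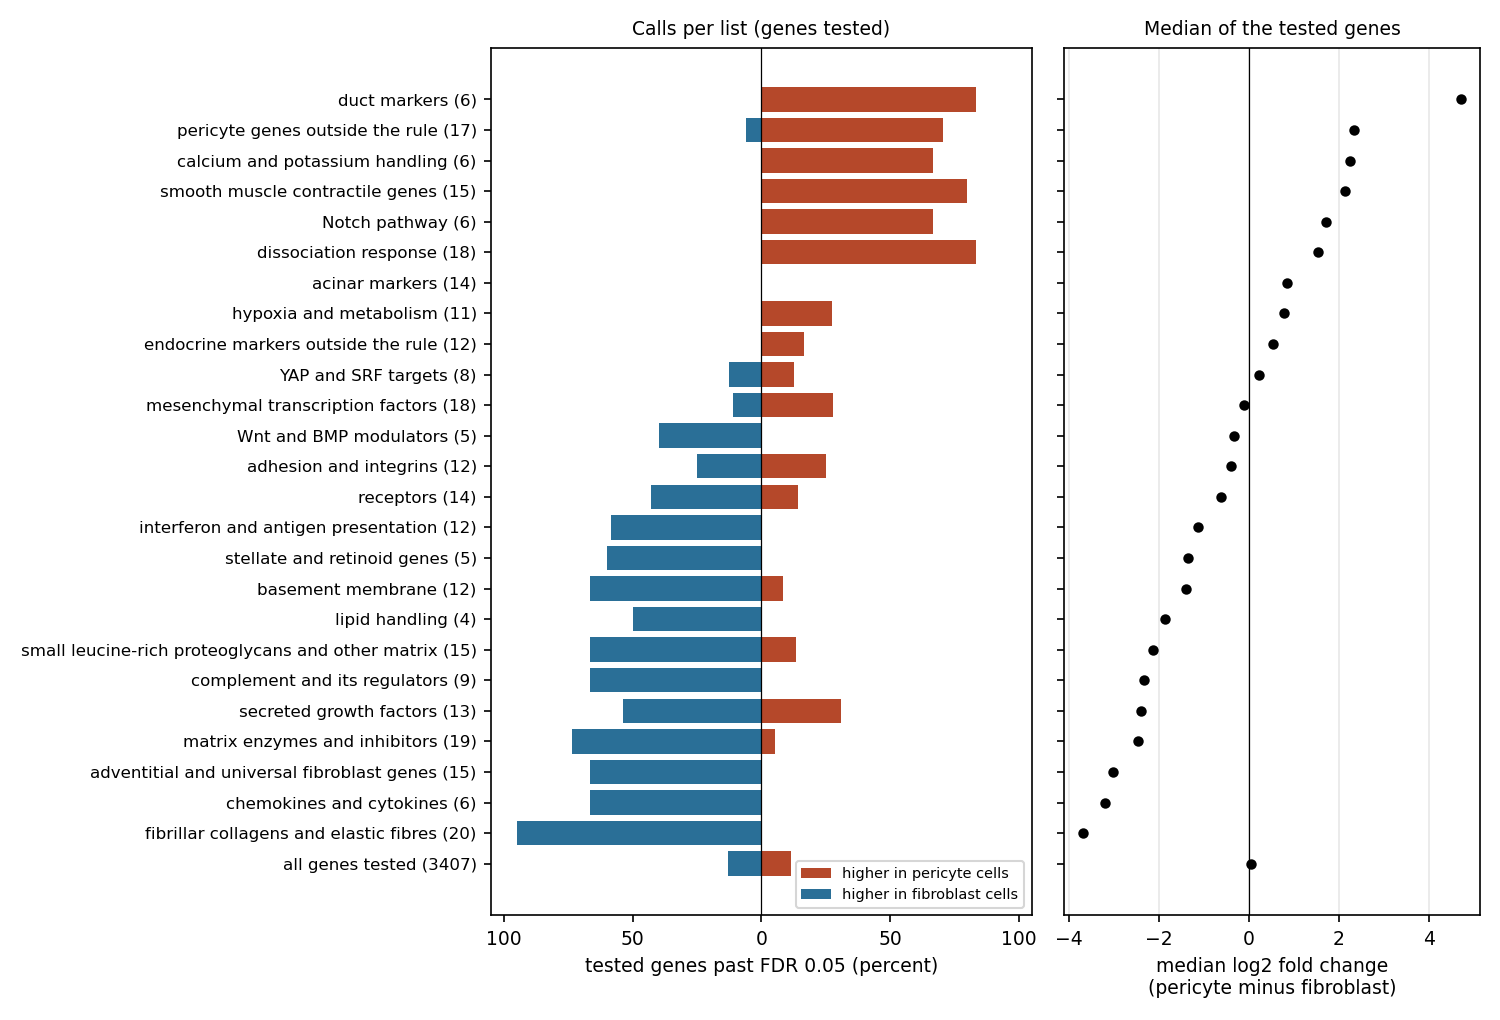
For each list with at least 4 tested genes and for all genes tested, the percent of tested genes past an adjusted p of 0.05 in either direction (left; the number tested is in brackets) and the median log2 fold change (right). Matrix lists extend to the fibroblast side and contractile, pericyte and early response lists to the pericyte side, where all genes give 11.3% and 13.1%.

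Markers of other cells were not alike on both sides. Duct markers were higher in pericyte cells in 5 of 6 tested genes of 15 (median 4.71; 3 of 6 without the replicate block 10 of 11 without mouse 3, 3 of 5 with free RNA subtracted, and 0 of 2 with a pericyte gate that ignores Acta2) and took 1.18%, 1.56% and 0.0754% of the pericyte UMIs against 0.0462%, 0.0150% and 0.0112% of the fibroblast UMIs. Epcam stood at 749.8, 624 and 135 against 0, 13.3 and 13.7 CPM. In the pericyte cells 8 of 160 (3, 2 and 3 per mouse) with 3 or more duct markers held 98.6% of these UMIs, and without the 9 pericyte and 7 fibroblast cells with 3 or more duct, leukocyte or Schwann markers no duct gene had enough counts to be tested. With those cells left out, a setting chosen after seeing the data, 809 genes were called, 382 and 427 per side, with 13 of 14 contractile genes, 12 of 15 pericyte genes and 16 of 17 early response genes higher in pericyte cells and 15 of 16 collagen and elastic fibre genes higher in fibroblast cells. Acinar markers were carried by all sums, with 0.431% to 2.57% of the pericyte and 0.181% to 3.57% of the fibroblast UMIs, and none of 14 passed by edgeR, none had an unadjusted p under 0.05, and DESeq2 called 0. Without mouse 2, 9 of 13 acinar markers were higher in pericyte cells. Of 12 tested endocrine markers 2 (16.7%, beside 11.3% of all genes tested) were higher in pericyte cells, Ttr (1.26, edgeR adjusted p = 0.025) and Pyy (1.25, edgeR adjusted p = 0.008). That count was 0 without the replicate block, without mouse 2, by DESeq2 and with free RNA subtracted (6 tested), 6 of 12 with high doublet scores removed, and 8 of 10 with the cells that carry duct, leukocyte or Schwann markers left out. Leukocyte markers took at most 0.169% of the UMIs of a sum, and 1 pericyte cell held 91.9% of those on its side. Of 2 tested endothelial genes, Esam was higher in pericyte cells (258, 267 and 563 against 0, 0 and 2.73 CPM) and Igfbp3 in fibroblast cells (-4.71). Of 2 tested Schwann cell genes Cryab was higher in pericyte (1.17) and Scn7a in fibroblast cells (-5.84), while Sox10 had 0 UMIs on both sides. No Schwann cell gene was higher in pericyte cells by DESeq2, without the replicate block, without mouse 1 or without mouse 3. The same held without fibroblast cells with 3 or more pericyte genes and with no endothelial gene allowed. Of the mesothelial and lymphatic markers none had enough counts, with 0 UMIs of Upk3b, Lyve1 and Mmrn1. The part of these other cells in the differences was not tested beyond the setting given.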

How the data were processed

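Islet cells of 3 mice were measured by droplet-based 3′ single-cell RNA sequencing, 1 library per mouse, and the authors deposited a count matrix (whole UMIs per gene and barcode, not normalized) for each. Per the submitters' processing notes these counts were made with Cell Ranger 2.2 on the mouse build mm10, while the headers of the matrices name software version 3.1.0; the annotation is not given in the sources used here. The labels name version 2 of the 3′ chemistry.

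From these counts, cells were chosen as described at the opening of the results, and their raw UMIs were summed per mouse and side. The members, the 31 gene lists and their tests were chosen with earlier results of these data known. No doublets were removed, and removal of the highest Scrublet scores (0.8% per 1000 barcodes) was an alternative.

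The 6 sums were compared with edgeR 4.0.16 (R 4.3.3, filterByExpr, TMM factors, robust quasi-likelihood fit, mouse as a block). P-values were adjusted by Benjamini-Hochberg across the 3435 genes of this fit. Among these were 28 rule or mitochondrial genes. Tallies of tested and called genes cover only the other 3407. The pairing comes from the animal, and deviations of both sides correlated at 0.15, 0.51 and 0.52 within mice 1, 2 and 3 and at -0.46 to 0.10 between mice (945 genes). Each deviation was taken from the mean of a side over its 3 mice. Positive values within mice thus push those between mice toward negative, so this contrast is in part fixed in advance. SE is the log2 fold change divided by the root of the F statistic. Named genes were the 12 largest fold changes in each direction past an adjusted p of 0.05 that had the same sign in each mouse, at least a 2-fold difference and a mean of 50 CPM on the higher side (symbols of numbered gene models left out), then up to 5 genes per list by smallest p, the genes of the rule, and the first 5 markers of each other cell type. Further list genes named were chosen after their values were seen. List medians were the same with genes at 0 on a side set to their bound.

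Counting intervals and floors (3 UMIs) cover counting error only. Endothelial cells, for reference, were kept barcodes with at least 2 of the 3 endothelial genes and less than 20% of UMIs in hormone genes. They also had fewer than 3 pericyte and fewer than 2 fibroblast genes of the rule (399 cells, median UMIs 9203, 5099.5 and 4295). These limits left out cells with more RNA of either side, so low levels of such genes there are in part fixed in advance. Genes with near-identical copies (Hspa1a, Ccl19, Ly6c1, Ly6a, Try4, H2-D1, H2-K1) and the antisense gene Tbx3os1 are uncertain, since reads of their relatives or partners may have been assigned to them. Promoters were read from a RefSeq table. Alternatives were DESeq2 1.42.0, other scaling, no count filter, no block, each mouse left out, other cell limits, thinning, and subtraction of free RNA (6.39% to 30.8% of a sum). Scripts were tested on simulated data. The values of 3 list genes are not reported here.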

Additional observations from a re-analysis of the deposited data

How the results depend on the processing

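With DESeq2, 458 genes were called (190 higher in pericyte, 268 in fibroblast cells), of which 456 were among the 832 of edgeR. Without a filter on low counts 1319 of 14850 genes were called (642 and 677), and in cells thinned to 2000 UMIs 239 of 609 (118 and 121). Leaving out each mouse in turn gave 421 to 932 calls (177 to 390 and 244 to 542), lowest without mouse 3. Without the replicate block 765 genes were called (344 and 421). Library totals in place of TMM gave 801 calls, and no endothelial gene allowed gave 651; none of the 832 genes changed sign as a call in any setting run. The median log2 fold change of secreted growth factors was 0.0212 without a count filter (-2.40 as reported, -0.0082 without mouse 2). That of 2 to 3 endothelial markers ran from -4.52 without mouse 1 to 2.58 without mouse 3 and was -4.86 without fibroblast cells with 3 or more pericyte genes (1.44 as reported), and that of Schwann cell markers was 1.45 without a count filter and 1.86 in thinned cells (-2.33 as reported); other genes were tested in these fits. Of the values of named genes under alternatives, 2434 kept their call or its absence, 90 lost it and 36 gained it. Sums of 7 to 15 fibroblast cells in mice 1 and 2 limit the precision, and 1 cell held up to 26.5% of a sum.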
